A study of Mus musculus with 8 samples.

Results

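Mitosis and G2/M genes, 48 genes whose products carry a cell through the G2 phase, chromosome segregation and cytokinesis, were followed in the thoracic annulus fibrosus, the fibrocartilage ring of the intervertebral disc. The list was taken by gene symbol, and each gene was read from its single-gene probe set with the highest mean over the 8 arrays. Of the 48 genes, 47 had such a probe set, 1 each, among 22180 genes measured. The level of Ccnb1 was not analysed here. Of the 47, 45 had a mean at or above the 30th percentile of gene means (6.21 on the log2 scale) and entered the test, which covered 15526 genes in all.

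Total RNA from Black 6 mice was hybridised to Affymetrix arrays as biotin-labelled cRNA. There were 4 groups of 2 arrays: WT at 2 months, ENT1-null at 2 months, WT at 6 months and ENT1-null at 6 months. ENT1-null mice lack exons 2 to 4 of Slc29a1, the gene of ENT1, a protein that lets adenosine and other nucleosides cross the cell membrane. Each array held a pool of 5 to 6 thoracic annulus tissues, and the labels do not state if different mice gave the pools of one group, so p-values measure the spread between pools. Values are log2 levels, comparable between arrays for 1 gene but not between genes. Replicate arrays correlated across genes with Pearson r of 0.991 to 0.992 (genes are not independent replicates). Slc29a1 read 10.71 and 10.69 in WT against 9.21 and 9.36 in ENT1-null at 2 months, and 10.34 and 10.43 against 8.90 and 8.80 at 6 months, with its probes not placed against the deleted exons here. It fell by 1.41 ± 0.09 (log2, SE of the limma fit, n = 2 and 2, adjusted p = 0.00724) at 2 months and by 1.53 ± 0.09 (adjusted p = 0.000354) at 6 months. All 14 annulus and tendon markers and all 13 cartilage markers measured had means above the array medians, as had 17 of 17 neutrophil lineage, 8 of 8 erythroid and 11 of 12 skeletal muscle markers. In pooled tissue, fewer cells of a type and less RNA per cell cannot be told apart.

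Mitotic genes are transcribed in a wave late in the cell cycle and are nearly silent in cells at rest. Cyclin B with the kinase CDK1 starts mitosis, kinesins and kinetochores build the spindle and attach chromosomes to it, and the anaphase-promoting complex (APC/C) ends mitosis by marking cyclins and securin for destruction. In the genes' promoters, CCAAT boxes bind the factor NF-Y and the cell cycle genes homology region (CHR) binds the DREAM and MMB complexes, which repress the genes at rest and activate them in G2. The adult annulus is a matrix-rich tissue of few, slowly dividing cells.

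In all 47 genes measured, ENT1-null arrays lay above WT arrays. Both 6 month ENT1-null arrays lay above the other 6 arrays, and both 2 month ENT1-null arrays lay above all 4 WT arrays, in 47 of 47 genes. Over all 22180 genes these orders were met by 17.9% and 10.9%. Within each age both ENT1-null arrays thus lay above both WT arrays in every gene, against 17% of all genes at 2 months and 28.1% at 6 months, and both 6 month ENT1-null arrays lay above both 2 month ENT1-null arrays, against 25.8%. The lower 2 month ENT1-null array exceeded the highest WT array by 0.07 (Melk) to 0.85 (Birc5), with a median of 0.48 (log2). The lower 6 month ENT1-null array exceeded the highest of the other arrays by 0.34 (Cenpm) to 1.42 (Kif15), with a median of 1.06. The 4 WT arrays did not separate by age: both 6 month WT arrays lay above both 2 month WT arrays in 5 of 47 genes (17.3% of all genes) and below them in none (29.5% of all genes).

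**Figure D1:**
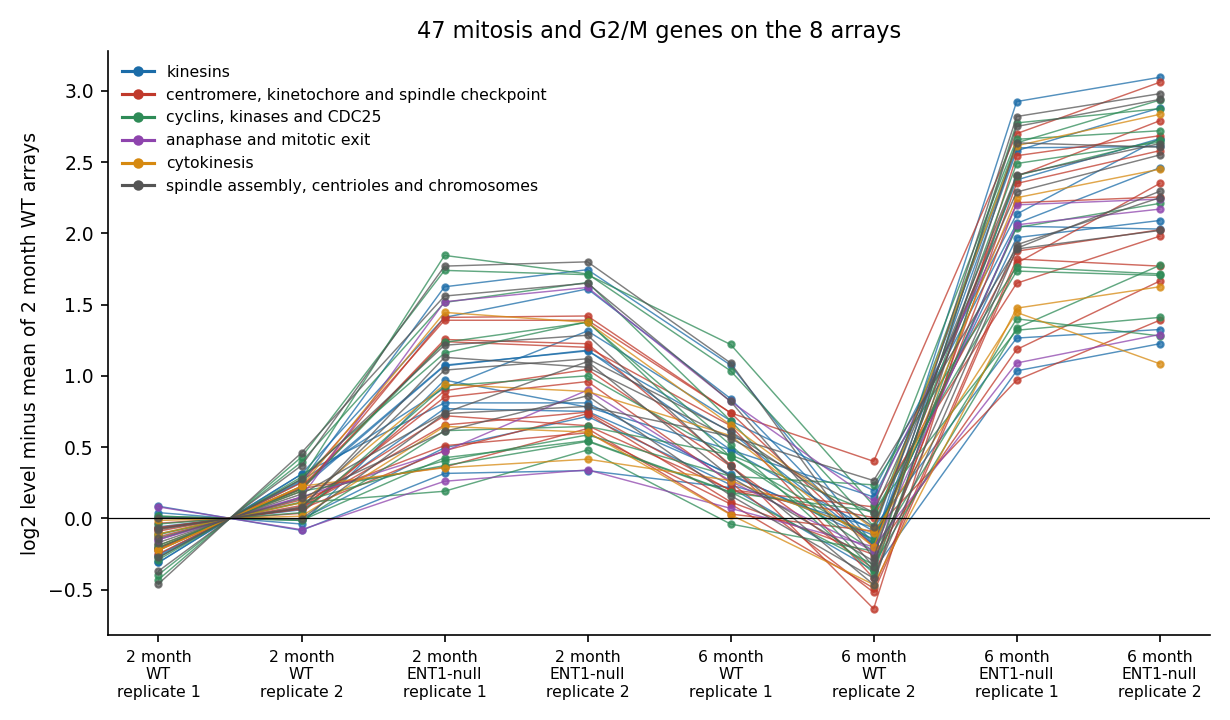
Each line joins the values of 1 gene on the 8 arrays, as its log2 level (y axis) minus its mean over the 2 month WT arrays, coloured by role; the lines only connect points of a gene and the replicates of a group have no order. All 47 genes lie highest on the 6 month ENT1-null arrays and next highest on the 2 month ENT1-null arrays, and 6 month WT replicate 1 lies above replicate 2 in all 47.

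The arrays also differed within WT. In the 6 month WT group replicate 1 was higher than replicate 2 in 47 of 47 genes, by 0.06 (Cdc25c) to 1.37 (Mki67), with a median of 0.58. Over all genes replicate 1 was higher in 49.9%. In the 2 month WT group replicate 1 was the higher array in 7 of 47 genes (median difference −0.30, 45.2% of all genes), and among the 4 WT arrays 6 month WT replicate 1 was the highest in 41 genes. The arrays of each ENT1-null group were closer, with median differences of replicate 1 from replicate 2 of −0.09 at 2 months and −0.17 at 6 months. There replicate 1 was the higher array in 13 and 7 of 47 genes, against 45.3% and 48.3% of all genes.

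Markers of the erythroid and neutrophil lineages moved on the same arrays as the mitosis genes. The mean log2 level of the 47 genes was 6.80 and 7.11 in 2 month WT, 7.89 and 7.98 in 2 month ENT1-null, 7.41 and 6.79 in 6 month WT and 9.01 and 9.20 in 6 month ENT1-null. The mean of 8 erythroid markers ran 7.30 and 7.74, 8.78 and 8.69, 8.36 and 7.62, and 9.73 and 10.07 in the same order. That of 17 neutrophil lineage markers ran 8.47 and 9.66, 10.45 and 10.81, 9.82 and 8.27, and 11.56 and 11.49. The mean of 12 B lineage markers ran 6.64 and 7.04, 7.15 and 7.27, 7.18 and 6.73, and 7.99 and 7.98. There 2 month ENT1-null replicate 1 lay below 6 month WT replicate 1. The mean of 8 T and NK cell markers ran 5.94 and 5.80, 5.78 and 5.81, 5.80 and 5.60, and 6.16 and 6.23. At 2 months it did not separate the genotypes. At 6 months 8 of 8 erythroid, 17 of 17 neutrophil lineage, 4 of 4 eosinophil and 8 of 10 B lineage markers tested rose (medians 2.08, 2.59, 3.26 and 1.00). At 2 months 1 of 8, 0 of 17, 2 of 4 and 0 of 10 rose (medians 1.47, 1.52, 1.66 and 0.37). Over all genes tested, 21.2% were called higher at 6 months and 0.296% at 2 months. Of other lists, 8 of 9 macrophage and 7 of 7 osteoclast markers tested rose at 6 months. Of 3 T and NK cell markers tested 1 rose, too few to set against the share of all genes. With no filter 4 of the 8 T and NK cell markers measured were called higher at 6 months. Of 12 B lineage markers 8 were then called higher and 1 lower, where 14.2% of all genes were called higher. Within WT some of these lists differed between replicates as the mitosis genes did. From 6 month WT replicate 2 to replicate 1 the mitosis genes were higher by 0.62, the erythroid markers by 0.74, the neutrophil lineage markers by 1.55 and the B lineage markers by 0.45, while macrophage and osteoclast markers differed by 0.03 and −0.04. From 2 month WT replicate 1 to replicate 2 the first 4 lists were higher by 0.32, 0.44, 1.19 and 0.41, and so were macrophage (0.54), osteoclast (0.68), endothelial (0.45), adipocyte (0.44) and skeletal muscle markers (1.30). RMA values have no zero, so no marker can be called absent. The part of these cells in the mitosis values was not tested.

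Markers of the disc and of muscle did not follow that order of arrays. The 13 cartilage markers had mean levels of 10.71 and 10.75 in 2 month WT, 10.43 and 10.61 in 2 month ENT1-null, 10.32 and 10.35 in 6 month WT and 9.60 and 9.57 in 6 month ENT1-null. At 6 months 10 of them fell and 3 did not pass (median −0.84), and of 14 annulus and tendon markers 3 rose, 7 fell and 4 did not pass (median −0.40). Of all 15526 genes tested, 2727 were called lower at 6 months. Of 12 skeletal muscle markers 10 fell at 6 months and 2 did not pass (median −2.34), and at 2 months none passed (median 1.04). The mean of 12 skeletal muscle markers ran 7.90 and 9.20, 8.74 and 10.30, 10.28 and 10.11, and 7.29 and 8.37 in the same order, so that the replicates of 3 groups lay more than 1 apart. Of 7 endothelial markers 2 rose at 6 months (median 0.41) and none passed at 2 months (median 0.38). Their mean ran 7.95 and 8.41, 8.48 and 8.82, 8.40 and 8.30, and 8.76 and 8.71 in the same order. Every ENT1-null array thus lay above every WT array in the mean of this list. The counts that rose in the endothelial and the annulus and tendon lists are near the 21.2% of all genes called higher.

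**Figure D2:**
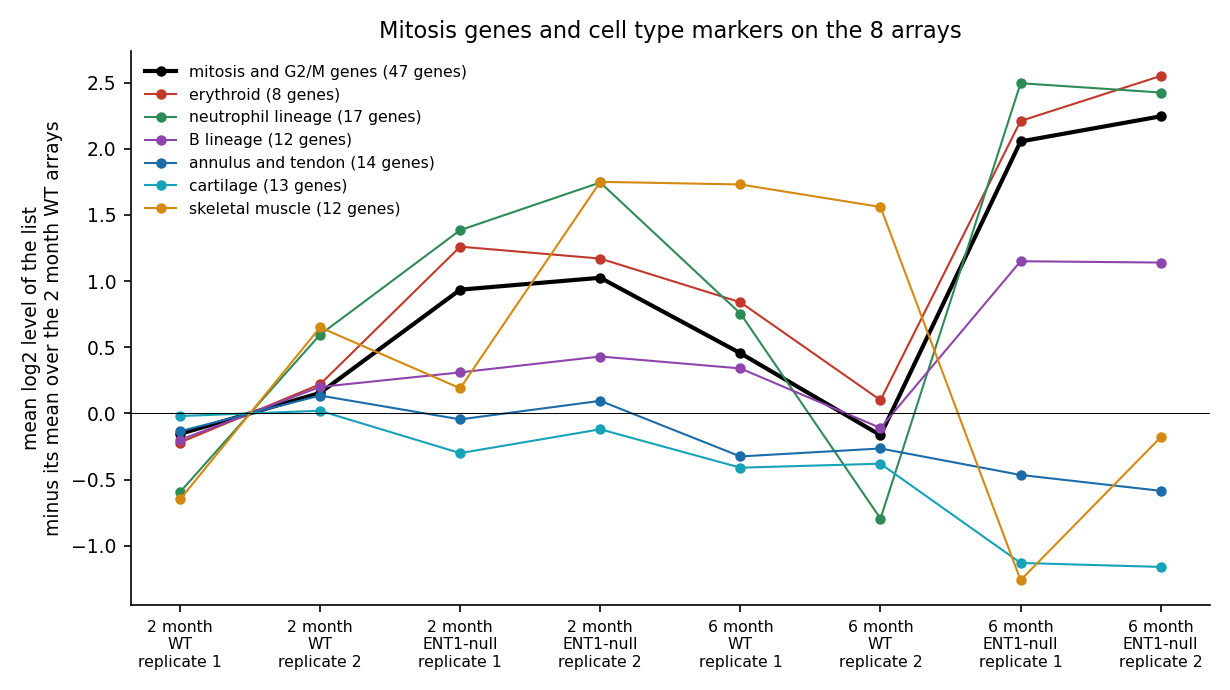
Mean log2 level of each gene list (y axis, minus its mean over the 2 month WT arrays) on the 8 arrays, with lines joining the points of a list. The mitosis genes (black), erythroid and neutrophil lineage markers are highest on the 6 month ENT1-null arrays and lower on 6 month WT replicate 2 than on replicate 1, while cartilage markers are lowest on the 6 month ENT1-null arrays.

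The promoters of these genes were read from a RefSeq table (build GRCm38.p6) that gives 250 bases before to 50 bases after a transcription start. Of the 48 listed genes 41 had an entry, Ccnb1 among them (the first window of a gene was used). Kif20a, Ccna2, Cdc25c, Aurkb, Tpx2, Pbk and Dlgap5 had none. The CHR letters TTTGAA, searched on both strands, occurred in 30 of 41 windows (73.2%), against 18.1% of the 27025 genes in the table. At least 2 CCAAT letters, on either strand, occurred in 22 of 41 windows (53.7%, against 12.2% of all genes), and both features in 17 (41.5%, against 2.19%). The genes were listed by role, and genes of this role are known for such promoters. The shares therefore describe the list and not its movement on these arrays. No set chosen by its movement was compared. No TTTGAA match overlapped a CCAAT match in these windows, CCAAT matches on opposite strands can overlap and were each counted, and a match describes letters, not binding. Shown here, from 200 bases before to 20 after the start and 5′ to 3′, are the 4 genes that held both features and had the largest statistic at 6 months. They are Cenpf (chr1:189688067-189688286, minus strand), Aurka (chr2:172370551-172370770, minus strand), Aspm (chr1:139454573-139454792, plus strand) and Hmmr (chr11:40733418-40733637, minus strand). Capitals mark CCAAT (or ATTGG, the other strand) and TTTGAA.
Cenpf: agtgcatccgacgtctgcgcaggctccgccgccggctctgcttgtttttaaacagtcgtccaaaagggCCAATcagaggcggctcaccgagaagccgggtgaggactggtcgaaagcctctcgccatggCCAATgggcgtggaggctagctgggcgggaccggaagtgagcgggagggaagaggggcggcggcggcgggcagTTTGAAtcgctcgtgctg
Aurka: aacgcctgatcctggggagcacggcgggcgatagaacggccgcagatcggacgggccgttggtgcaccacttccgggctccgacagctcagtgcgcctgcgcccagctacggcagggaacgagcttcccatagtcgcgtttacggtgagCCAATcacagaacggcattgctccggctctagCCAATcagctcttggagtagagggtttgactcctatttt
Aspm: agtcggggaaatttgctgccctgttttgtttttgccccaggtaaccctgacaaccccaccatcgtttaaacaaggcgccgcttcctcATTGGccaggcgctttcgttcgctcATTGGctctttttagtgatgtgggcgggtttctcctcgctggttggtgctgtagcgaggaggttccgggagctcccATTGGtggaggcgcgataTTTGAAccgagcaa
Hmmr: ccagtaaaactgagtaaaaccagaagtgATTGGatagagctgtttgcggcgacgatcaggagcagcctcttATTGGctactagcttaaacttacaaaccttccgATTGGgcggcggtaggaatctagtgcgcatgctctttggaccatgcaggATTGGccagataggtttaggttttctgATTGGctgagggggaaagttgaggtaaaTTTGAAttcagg

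In the Cenpf, Aspm and Hmmr stretches TTTGAA began 3, 7 and 9 bases after the start, downstream of 2, 3 and 5 CCAAT letters. The Aurka match began 33 bases after the start, beyond the bases shown. Windows without TTTGAA included those of Cenpk, Stil and Kif18a. All 45 genes tested rose at 6 months, so the letters cannot be set against a rise within this list.

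At 2 months, setting ENT1-null against WT asks whether loss of the transporter changes these genes in young mice. The 47 genes measured all had higher means in ENT1-null, by 0.30 (Espl1) to 1.78 (Ccnb2 and Mki67) on the log2 scale, with a median of 0.92 (−0.04 over all genes), and 21 of them were at least 2-fold higher. Of the 45 tested, 4 rose (limma, adjusted p between 0.0393 and 0.0463), none fell and 41 did not pass, while 0.296% of all genes tested were called higher. The genes that rose were Cenpk, Ube2c, Cenpn and Stil. By role the medians over genes measured ran from 0.68 for anaphase and 0.77 for cytokinesis to 0.91 for kinetochores, 0.97 for cyclins and kinases, 0.99 for kinesins and 1.09 for spindle assembly.

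Cenpk, a subunit of the inner kinetochore complex that holds CENP-H and CENP-I, had log2 levels of 5.26 and 5.64 in WT and rose to 6.86 and 6.87 in ENT1-null mice. The rise was 1.42 ± 0.18, a 2.67-fold difference (limma adjusted p = 0.0393). Its mean over the WT arrays lay below the filter level, so that it entered the test through the ENT1-null arrays, as did Cdc25c, Cep55, Birc5 and Hmmr. Ube2c, the ubiquitin-conjugating enzyme of the APC/C, read 8.17 and 8.47 in WT against 9.84 and 9.94. It rose by 1.57 ± 0.21, or 2.97-fold (adjusted p = 0.0437). Cenpn, which recognises the centromeric nucleosome, read 7.40 and 7.55 in WT against 8.13 and 8.22, and rose by 0.71 ± 0.11 (adjusted p = 0.0443). Stil, needed to build new centrioles, read 6.36 and 6.50 in WT against 7.56 and 7.49, and rose by 1.09 ± 0.17 (adjusted p = 0.0463). In all 4 the genotypes' arrays were apart by more than the replicates of either genotype.

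Some larger differences did not pass, in genes whose WT arrays were far apart at both ages. Mki67, the antigen Ki-67 that coats mitotic chromosomes, read 8.71 and 9.45 in WT against 10.85 and 10.88, a difference of 1.78 ± 0.41 (adjusted p = 0.0814). Ccnb2, a B-type cyclin, read 8.50 and 9.05 against 10.62 and 10.49 (1.78 ± 0.33, adjusted p = 0.0576). Top2a, the topoisomerase that untangles sister chromatids, read 6.96 and 7.88 against 8.98 and 9.07 (1.61 ± 0.39, adjusted p = 0.088). The WT arrays of these 3 genes differed by 0.55 to 0.91 at 2 months and by 1.09 to 1.37 at 6 months, and those of the 4 called genes by 0.14 to 0.38 and by 0.19 to 0.70. The SE is pooled over the 4 groups.

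Leaving out 1 array changed the count at 2 months, to 0 without 2 month WT replicate 1, either 2 month ENT1-null array or either 6 month ENT1-null array, 9 without 2 month WT replicate 2 and 29 without either 6 month WT array, while the median difference stayed between 0.90 and 1.03. It was 1 (Cenpk) with no filter on low levels (0.0496% of all genes called higher) and 34 at adjusted p below 0.1 (5.3% of all genes called in either direction). For a 1.5-fold or larger difference with unadjusted p below 0.05 it was 37 (5.09%).

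**Figure D3:**
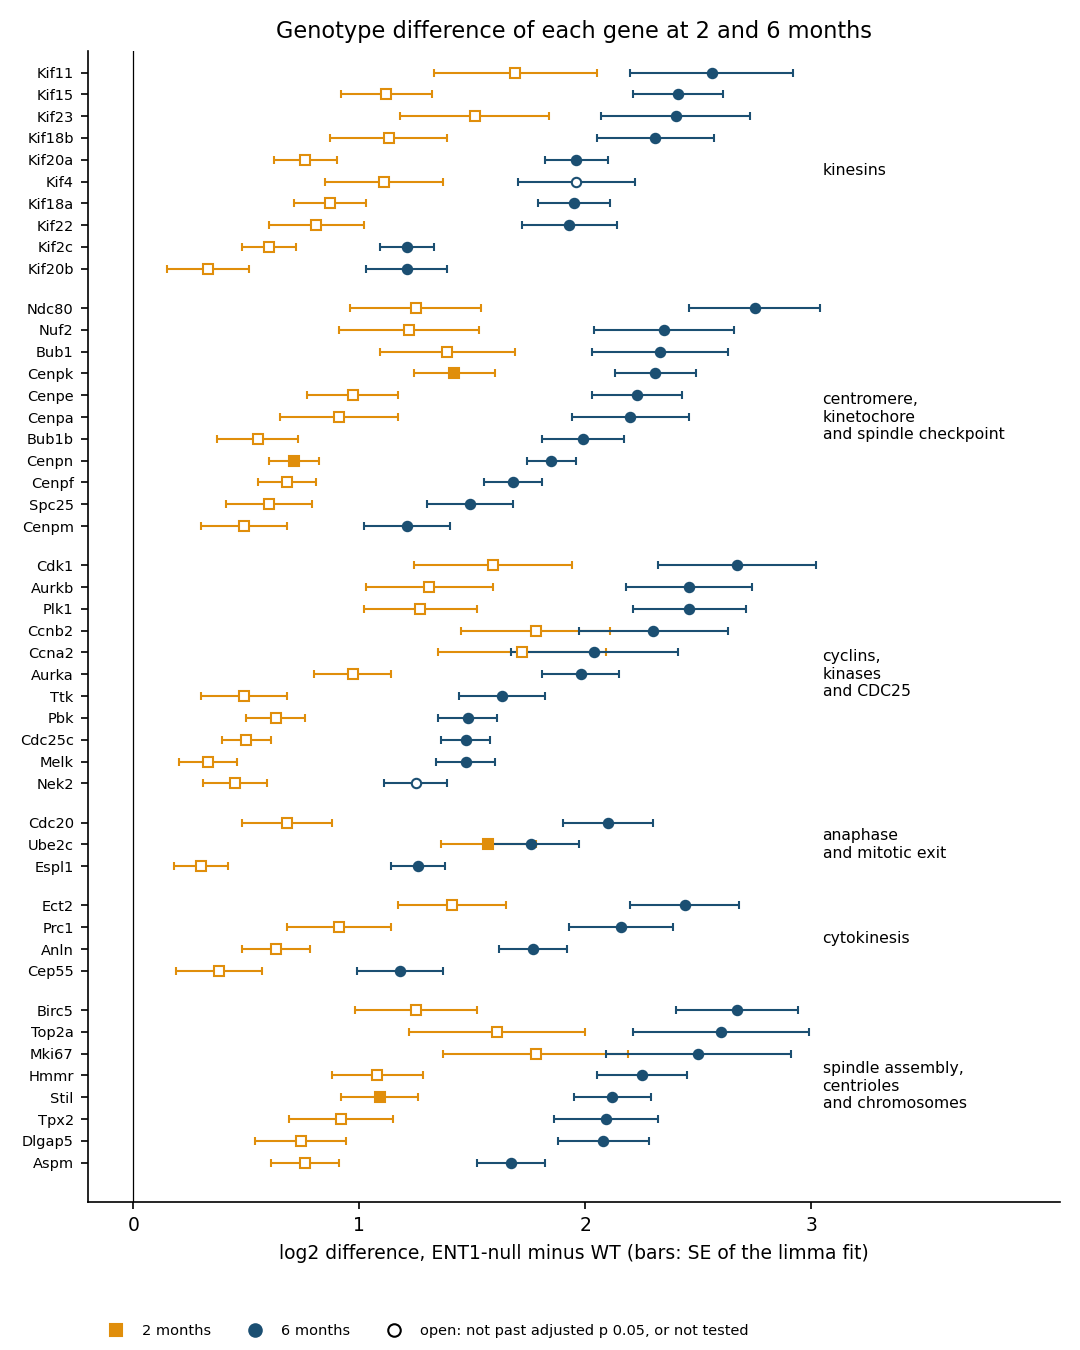
Log2 difference between ENT1-null and WT (x axis) of the 47 genes at 2 months (squares) and 6 months (circles), by role, with the SE of the limma fit (2 arrays per group); filled symbols passed adjusted p below 0.05. Every gene lies further to the right at 6 months, and the 2 sets of values come closest together in Ube2c, Ccna2 and Ccnb2.

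At 6 months the same contrast asks the question in older mice. All 45 genes tested rose (limma, adjusted p between 0.000354 and 0.00439), where 21.2% of all genes tested were called higher. With no filter all 47 measured were called (14.2% of all genes called higher). Differences ran from 1.18 (Cep55) to 2.75 (Ndc80) with a median of 2.08 over the 47 (−0.06 over all genes), so that each gene was at least 2-fold and 25 genes at least 4-fold higher. Of all 22180 genes, 3.85% had a difference as large as that of Cep55 or larger. All 45 calls held without any single array. Among the 45 tested the median was 2.09. It was 2.38 without 6 month WT replicate 1 and 1.79 without replicate 2, the array pair that was apart in every gene.

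Among the kinesins, motor proteins of the spindle and midzone, all 9 tested rose (median 1.96). Kif20a, which carries the chromosomal passenger complex to the central spindle, read 7.22 and 6.76 in 6 month WT and 8.96 and 8.94 in 6 month ENT1-null. It rose by 1.96 ± 0.14, or 3.9-fold (limma adjusted p = 0.000383). Kif15, which helps to keep the spindle bipolar, read 6.78 and 6.21 against 8.90 and 8.91 and rose by 2.41 ± 0.20 (5.31-fold). Kif18a, which dampens chromosome movement on the metaphase plate, read 6.87 and 6.54 against 8.46 and 8.85 and rose by 1.95 ± 0.16. Kif11, the motor that pushes spindle poles apart, had the largest difference in the group, 2.56 ± 0.36, and the widest WT arrays, 8.41 and 7.15. Kif23, the motor of centralspindlin, rose by 2.40 ± 0.33, Kif18b, which shortens astral microtubules, by 2.31 ± 0.26 and Kif22, a chromokinesin, by 1.93 ± 0.21. Kif2c, which takes microtubules apart at centromeres, and Kif20b, a kinesin of late cytokinesis, had the smallest, both 1.21.

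Kif4, a chromosome-bound kinesin, lay below the filter level with a mean of 6.00, and entered no test. It read 4.75 and 5.28 in 2 month WT, 5.93 and 6.33 in 2 month ENT1-null, 5.70 and 5.21 in 6 month WT, and 7.15 and 7.68 in 6 month ENT1-null. With no filter its difference was 1.11 ± 0.26 (limma adjusted p = 0.107) at 2 and 1.96 ± 0.26 (adjusted p = 0.00133) at 6 months. Nek2, a kinase that splits centrosomes, was the other gene below that level (mean 5.71). Its arrays in the same order of groups read 5.04 and 5.42, 5.60 and 5.77, 5.41 and 5.28, and 6.55 and 6.64, and with no filter the difference was 0.45 ± 0.14 (adjusted p = 0.173) and 1.25 ± 0.14 (adjusted p = 0.000711). Just above the level lay Birc5 (mean 6.25) and Cep55 (6.33).

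Genes of the centromere, kinetochore and spindle checkpoint rose in 11 of 11 cases (median 2.20). Cenpn read 7.67 and 7.48 in 6 month WT and 9.35 and 9.50 in ENT1-null, a rise of 1.85 ± 0.11, or 3.62-fold (limma adjusted p = 0.000354). Cenpf, a large coiled-coil protein of the outer kinetochore, read 7.29 and 7.17 against 8.74 and 9.07 (1.68 ± 0.13). Cenpk read 6.19 and 5.85 against 8.15 and 8.51 (2.31 ± 0.18). The genes of the NDC80 complex, which grips the microtubule, rose together. Ndc80 read 6.75 and 5.74 in WT against 8.92 and 9.06, a rise of 2.75 ± 0.29 or 6.7-fold, with 2.35 ± 0.31 for Nuf2 and 1.49 ± 0.19 for Spc25. Of the checkpoint genes, Bub1 rose by 2.33 ± 0.30 and Bub1b, which holds back the APC/C, by 1.99 ± 0.18. Cenpa, the centromeric histone, rose by 2.20 ± 0.26 and Cenpe, a kinesin of the kinetochore, by 2.23 ± 0.20, while Cenpm had the smallest rise of the group, 1.21 ± 0.19.

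Cyclins, mitotic kinases and CDC25 rose in 10 of 10 genes tested (median 2.01). Cdc25c, the phosphatase that activates CDK1, read 6.14 and 6.08 in 6 month WT against 7.61 and 7.56 in ENT1-null, a rise of 1.47 ± 0.11 with both genotypes' replicates within 0.06 (limma adjusted p = 0.000383). Cdk1 itself rose by 2.67 ± 0.35 from 8.06 and 7.01 to 10.15 and 10.25, or 6.35-fold. Aurka, a kinase of the spindle poles, read 7.75 and 7.17 against 9.36 and 9.53 (1.98 ± 0.17). Aurkb, the kinase of the chromosomal passenger complex, and Plk1, which acts from mitotic entry to cytokinesis, both rose by 2.46. Melk read 6.30 and 6.11 against 7.74 and 7.62 and Pbk 7.12 and 6.71 against 8.41 and 8.38. These 2 mitotic kinases rose by 1.47 ± 0.13 and 1.48 ± 0.13. Ccna2, the cyclin of S and G2 phases, rose by 2.04 ± 0.37 and Ccnb2 by 2.30 ± 0.33, and Ttk, the checkpoint kinase MPS1, by 1.63 ± 0.19.

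The regulators of anaphase rose in 3 of 3 cases (median 1.76). Cdc20, the APC/C activator that the checkpoint restrains, read 7.68 and 7.19 in 6 month WT and 9.48 and 9.59 in ENT1-null (2.10 ± 0.20, limma adjusted p = 0.00045). Espl1, separase, which cuts cohesin, read 7.08 and 6.81 against 8.10 and 8.30 (1.26 ± 0.12). Ube2c read 9.14 and 8.44 against 10.52 and 10.56 (1.76 ± 0.21). The cytokinesis genes rose in 4 of 4 cases (median 1.96), Prc1, which bundles midzone microtubules, by 2.16 ± 0.23. Ect2, the exchange factor that activates RhoA at the cleavage plane, read 8.17 and 7.44 against 10.13 and 10.35 (2.44 ± 0.24). Anln, the scaffold anillin, read 8.02 and 7.53 against 9.47 and 9.62 (1.77 ± 0.15). Cep55, of the midbody, read 6.16 and 5.79 against 7.34 and 6.98 and had the smallest rise of all, 1.18 ± 0.19 (adjusted p = 0.00253). Its ENT1-null replicates differed by 0.36, the widest gap among the 47 genes with replicate 1 higher.

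Genes of spindle assembly, centrioles and chromosomes rose in 8 of 8 cases (median 2.18). Stil read 6.99 and 6.47 in 6 month WT and 8.72 and 8.98 in ENT1-null (2.12 ± 0.17, limma adjusted p = 0.000383). Aspm, a spindle pole protein, read 7.05 and 6.74 against 8.37 and 8.77 (1.67 ± 0.15). Tpx2, which activates Aurora A on the spindle, rose by 2.09 ± 0.23 and Dlgap5, which stabilises spindle microtubules, by 2.08 ± 0.20. Hmmr, which binds spindle microtubules, read 6.47 and 5.80 against 8.27 and 8.49 (2.25 ± 0.20). Birc5, survivin of the passenger complex, had the largest difference here, 2.67 ± 0.27, from 5.66 and 4.83 to 7.93 and 7.90. The proliferation markers Mki67 and Top2a rose by 2.50 ± 0.41 and 2.60 ± 0.39, with the least precise values of the group: their 6 month WT arrays read 10.17 and 8.80, and 8.24 and 7.08.

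Whether the genotype difference itself changed with age was tested as the difference at 6 months minus that at 2 months, which uses the same 8 arrays as both. It was above 0 in 47 of 47 genes (median 1.03 over those measured, 0.02 over all genes). Of 45 tested, 13 passed (limma, adjusted p between 0.0378 and 0.0494), all with a larger difference at 6 months, against 2.56% of all genes called in that direction. They were Cenpn, Cdc25c, Melk, Kif20a, Cenpf, Bub1b, Espl1, Anln, Cdc20, Dlgap5, Kif18a, Pbk and Kif15. Bub1b had the largest of these changes, from 0.55 ± 0.18 at 2 to 1.99 ± 0.18 at 6 months (1.44 ± 0.26, adjusted p = 0.0384). Melk went from 0.33 ± 0.13 to 1.47 ± 0.13 (1.14 ± 0.19, adjusted p = 0.0383), with 2 month arrays at 6.23 and 6.45 in WT against 6.53 and 6.82.

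The genes with the largest differences at 2 months showed no such call. Ube2c differed by 1.57 at 2 and 1.76 at 6 months, a change of 0.19 ± 0.30 (limma adjusted p = 0.74) whose sign turned (−0.16) without 6 month WT replicate 2. Ccna2 changed by 0.31 ± 0.53 (adjusted p = 0.757) and Ccnb2 by 0.52 ± 0.47 (adjusted p = 0.53). The 13 calls were made close to the threshold. None was made with no filter (0.0316% of all genes called higher), or without any 1 of the arrays other than 6 month WT replicate 1, and 24 were made without that array. At adjusted p below 0.1 there were 31 (15.3% of all genes called in either direction) and at the unadjusted rule with 1.5-fold 36 (12.2%).

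The effect of age was also read within each genotype. In WT no gene of the 45 passed (limma, 0% of all genes called), and 3 had an unadjusted p below 0.05, against 13.3% of all genes. The median difference between 6 and 2 months in WT was 0.12 over the 47 genes, with 34 above 0 and 13 below. Among the 45 tested it was 0.11, or −0.19 without 6 month WT replicate 1 and 0.43 without replicate 2, so that its sign depended on which of these arrays was kept. In ENT1-null 40 of 45 genes rose from 2 to 6 months (median 1.22 over the 47, −0.01 over all genes), against 11.9% of all genes called higher. The 5 that did not pass were Ccnb2 (1.01 ± 0.33, adjusted p = 0.0692), Ccna2 (0.96 ± 0.37, adjusted p = 0.11), Ube2c (0.65 ± 0.21, adjusted p = 0.0642), Top2a (1.24 ± 0.39, adjusted p = 0.0601) and Mki67 (1.12 ± 0.41, adjusted p = 0.0937). The count was 22 without 2 month ENT1-null replicate 1 or without 6 month ENT1-null replicate 2. This comparison shares its arrays with those between genotypes.

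Other lists of the cell cycle placed these genes in their pathway. Of 65 other mitosis genes tested, 60 rose at 6 months, 1 fell and 4 did not pass (median 1.43). The 4 were Zw10, Wee1, Pttg1 and Sapcd2. Some of the 65, such as Depdc1a (means of 5.73 and 5.93 in 2 and 6 month WT), lay below the filter level in WT. They entered the test through the ENT1-null arrays. With no filter 64 of 71 rose at 6 months and 1 fell. At 2 months 2 of the 65 rose, Cdca8 and Cdc25b, and 63 did not pass (median 0.51). Of all genes tested, 21.2% were called higher at 6 months and 0.296% at 2 months. Kntc1, a checkpoint protein of the kinetochore, rose by 1.63 ± 0.10, Mastl, the Greatwall kinase, by 1.13 ± 0.07 and Cdca8, borealin of the passenger complex, by 1.81 ± 0.12 (limma adjusted p between 0.000354 and 0.000383). Cenpp, of the inner kinetochore, fell by 0.80 ± 0.12 (adjusted p = 0.00181), and Pttg1, securin, gave −0.14 ± 0.09 (adjusted p = 0.238). Of 37 S phase and replication genes, 36 rose at 6 months and 1 did not pass (median 1.22), and at 2 months 1 (Mcm4) rose and 36 did not pass (median 0.52). Mcm4 rose by 1.58 ± 0.11, Rrm1 by 1.87 ± 0.15 and Pole, the leading-strand polymerase, by 1.98 ± 0.16. Mcm6 rose by 0.34 ± 0.09, and Fen1, the flap endonuclease, gave −0.18 ± 0.15 (adjusted p = 0.379).

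Of 19 genes of APC/C subunits, its other cofactors and the mitotic phosphatase, 5 rose at 6 months and 14 did not pass (median 0.12), a count near the 21.2% of all genes called higher. The cofactor genes Fzr1 and Ube2s rose by 1.54 ± 0.16 (limma adjusted p = 0.000548) and 1.10 ± 0.13 (adjusted p = 0.000849), and Cdc27, a core subunit, by 0.31 ± 0.09 (adjusted p = 0.0305). The other two were the subunits Anapc13, at 0.33 ± 0.11, and Anapc15, at 0.60 ± 0.19. Anapc11, the catalytic RING subunit, gave −0.19 ± 0.08 (adjusted p = 0.0928) and Ppp2r2d, a phosphatase subunit, −0.19 ± 0.08 (adjusted p = 0.087). At 2 months none of the 19 passed (median −0.06).

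Of 23 transcription factors that act on G2/M genes, 16 rose at 6 months, 1 fell and 6 did not pass (median 1.03). Of all genes tested, 21.2% were called higher at 6 months. None of the 23 passed at 2 months (median 0.29). Foxm1, the forkhead factor of G2 genes, rose by 1.81 ± 0.25 (limma adjusted p = 0.00124), and Mybl2, the B-Myb of the MMB complex, by 1.40 ± 0.12 (adjusted p = 0.000383). Lin9 and Lin54, of the core that MMB and DREAM share and whose LIN54 protein binds the CHR, rose by 1.13 ± 0.08 and 0.73 ± 0.09. Activator E2Fs rose by 1.40 ± 0.18 (E2f1), 2.47 ± 0.20 (E2f2) and 1.03 ± 0.15 (E2f3). Of the repressors and pocket proteins, E2f4 rose by 1.22 ± 0.13, E2f7 by 1.32 ± 0.17, E2f8 by 2.58 ± 0.37, Rb1 by 1.05 ± 0.12 and Rbl1, the p107 pocket protein, by 1.17 ± 0.14. The E2F partners Tfdp1 and Tfdp2 rose by 1.04 ± 0.09 and 0.83 ± 0.15 (adjusted p of these 14 genes between 0.000383 and 0.00392). The gene that fell was E2f5, another repressor, by 0.52 ± 0.13 (adjusted p = 0.0169), a gene singled out after its value was seen.

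**Figure D4:**
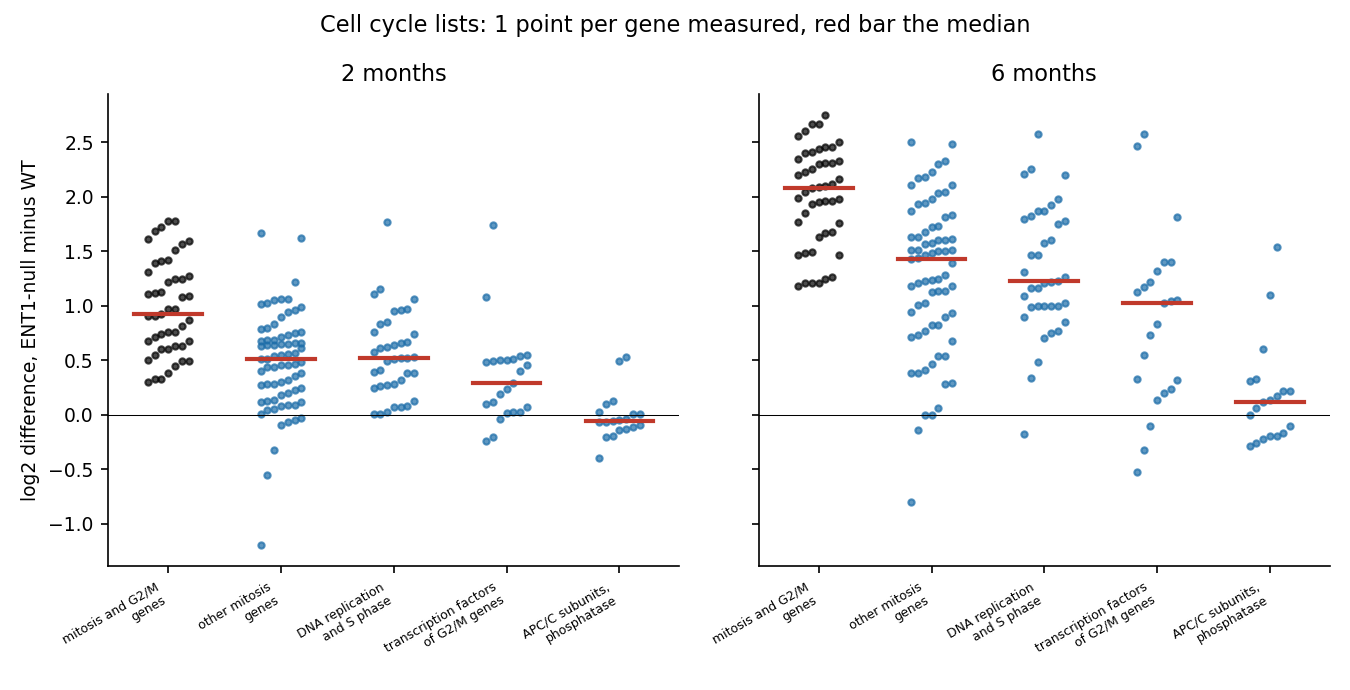
Log2 difference between ENT1-null and WT (y axis) at 2 months (left) and 6 months (right) for every gene measured of 5 lists, 1 point per gene, with the median as a red bar. Medians over the genes measured are 0.92, 0.51, 0.52, 0.29 and −0.06 at 2 months and 2.08, 1.43, 1.23, 1.03 and 0.12 at 6 months, in the order plotted.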

How the data were processed

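The deposited values, log2 expression per probe set for 8 arrays, were made by the authors with RMA, per the submitters' processing notes; no version or genome build is given there or in the labels. RMA corrects background, normalizes quantiles between arrays and summarises the probes of each set. The cRNA came from 200 ng of total RNA, per the labels' protocols. Of 41345 probe sets, 23521 had 1 gene symbol in the platform annotation, 1814 several and 16010 none. A gene was read from its single-gene probe set with the highest mean (22180 genes), and a gene was tested where that mean reached the 30th percentile.

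A limma 3.58.1 fit in R 4.3.3 with 4 group means over all 8 arrays (4 residual degrees of freedom, eBayes) gave 5 comparisons. Calls were made at an adjusted p below 0.05 (Benjamini-Hochberg, over all 15526 genes). The code of the fit was run on simulated data with independent noise per gene and a small set of genes raised in the 6 month ENT1-null group. In the real arrays many genes moved together, so that run checks the code and not the calls made here. With 2 arrays per group, their number limits the precision. No test was made over the list: counts and medians stand beside those of all genes. The genes, lists and tests were chosen with earlier results of these data known. Arrays were shown for genes called at 2 months, the largest statistics of each role at 6 months, the 6 largest of the interaction, the extremes and genes below the filter level; other members, and genes named where a count was 5 or fewer, were added after their values were seen. Alternatives were other filters, normalizations, probe set rules, eBayes settings, thresholds and arrays, a block for replicate number and each array left out.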

Additional observations from a re-analysis of the deposited data

Results flagged for a closer look

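In 13 mitosis and G2/M genes the genotype difference differed between the ages by the test of that difference (limma adjusted p between 0.0378 and 0.0494, 2 arrays per group). Among kinesins the log2 difference at 6 months exceeded that at 2 months by 1.21 ± 0.20 (SE) in Kif20a, 1.08 ± 0.23 in Kif18a and 1.29 ± 0.28 in Kif15. At the kinetochore and checkpoint it did so by 1.15 ± 0.15 in Cenpn, 0.99 ± 0.18 in Cenpf and 1.44 ± 0.26 in Bub1b. In the kinases and CDC25 the change was 0.97 ± 0.15 in Cdc25c, 1.14 ± 0.19 in Melk and 0.85 ± 0.18 in Pbk. For anaphase it was 0.96 ± 0.17 in Espl1 and 1.42 ± 0.28 in Cdc20, for cytokinesis 1.14 ± 0.21 in Anln, and for the spindle 1.34 ± 0.28 in Dlgap5. None of the 13 was called with no filter on low levels or without any 1 array other than 6 month WT replicate 1. Groups of 2 arrays are too small for a test of single outlying arrays.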

How the results depend on the processing

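At 6 months the calls held under every alternative run: 45 to 47 genes, or 36 of the 36 tested with a filter at the 50th percentile. The count at 2 months (4) was 1 with no filter, 9 with arrays centred on their medians, 10 with eBayes with trend and robust, 0 with only the groups compared, 34 at adjusted p below 0.1, 37 at unadjusted p below 0.05 with a 1.5-fold difference, and 0 to 29 with each array left out. The count for the change with age (13) was 0 with no filter, 31 at adjusted p below 0.1, 36 at the unadjusted rule and 0 to 24 with each array left out. In ENT1-null by age it was 22 to 44 (main value 40), and in WT 0 under every alternative run. The change with age of Ube2c (0.19) ran from −0.16 without 6 month WT replicate 2 to 0.54 without replicate 1. Medians over the 45 genes tested, with each array left out, were 0.90 to 1.03 at 2 months and 1.79 to 2.38 at 6 months. They were 0.79 to 1.40 for the change with age (1.08 with all arrays). By age they were −0.19 to 0.43 in WT and 1.14 to 1.29 in ENT1-null. Where a sample was left out, the lone array of its group was assumed to vary like the others and added nothing to the pooled spread. The count at 2 months was therefore the same without either 6 month WT array. The cause of the other changes was not tested. Replicate numbers of the labels tie to no shared animal or batch, and deviations of same-numbered arrays correlated between −0.395 and 0.415 over the pairs of groups. A replicate block gave 0 calls at 2 months, 45 at 6 months, 4 for the change with age, 0 by age in WT and 37 by age in ENT1-null. No scaling moved the median of all genes by more than 0.1.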

Other observations

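The genotype difference at 2 months, as a share of that at 6 months, had a median of 45.2% over the 47 genes. The ages were measured on separate arrays, so the share is a ratio and not a course over time. It was highest in Ube2c (89.3%), Ccna2 (84.7%), Ccnb2 (77.3%) and Mki67 (71.3%), and lowest in Melk (22.5%), Espl1 (23.7%), Kif20b (27.2%) and Bub1b (27.8%). These genes were singled out after their values were seen, and the order was not tested. The shares carry no SE. The difference at 6 months minus that at 2 months was 0.31 ± 0.53 in Ccna2, 0.52 ± 0.47 in Ccnb2 and 0.72 ± 0.58 in Mki67. That of Ube2c turned sign without 6 month WT replicate 2. Melk, Espl1 and Bub1b were called for that change in the main fit. Shares varied within roles: among anaphase genes they ran from the highest, Ube2c, to Espl1, and Cdc25c, which activates CDK1 at mitotic entry, stood at 34.1%.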
